A study of Homo sapiens with 12 samples.

Results

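Lipid droplet genes were followed as 10 genes picked by symbol, namely HILPDA, PLIN2, PLIN3, PLIN5, LPIN1, VLDLR, PNPLA2, G0S2, DGAT1 and DGAT2. All 10 were found among the 25369 genes of the deposited tables. The data were strand-specific poly(A)+ RNA-seq libraries of 3 human carcinoma lines, RKO from colon and A549 and H460 from lung. Normoxic cells of each line were set against cells kept at 1% O2 for 24 h (hypoxia), with 2 replicates in each of the 6 groups. RKO and A549 cells grew in DMEM and H460 cells in RPMI, so a difference between H460 and the other lines cannot be told apart from one of medium. No group carried an engineered allele or a drug, and the study's methods describe the replicates as independent biological duplicates.

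A lipid droplet is a core of neutral fat, mainly triglyceride, under a single layer of phospholipid to which coat proteins bind. Fat enters the droplet through lipoprotein uptake and through esterification of fatty acids, and leaves it when lipases release the fatty acids again. Many cells gather droplets when oxygen is scarce, since burning fatty acids in mitochondria needs oxygen. The genes here cover each of these steps: VLDLR takes up lipoproteins, LPIN1, DGAT1 and DGAT2 build triglyceride, PLIN2, PLIN3 and PLIN5 coat the droplet, PNPLA2 encodes the lipase ATGL, and HILPDA and G0S2 encode small proteins that inhibit ATGL.

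HILPDA and PLIN2 were the members that rose in all 3 lines. In H460 the rises were 8.99-fold for HILPDA and 15.6-fold for PLIN2, and VLDLR, PLIN3, LPIN1 and PNPLA2 rose too while DGAT2 and G0S2 fell. In RKO the third gene to rise was PLIN5, and in A549 HILPDA and PLIN2 were alone among the members. A gene was called when its adjusted p (edgeR's quasi-likelihood test, Benjamini-Hochberg over all genes tested in that line) lay below 0.1 and the fold change exceeded 1.5.

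Of the members with enough reads to be tested, 3 of 9 rose and 0 fell in RKO, where 18.8% of all genes tested rose and 15.1% fell (33.9% in either direction). In RKO, PLIN2 and HILPDA also passed an adjusted p of 0.05, which PLIN5 did not. In A549, 2 of 8 members rose and 0 fell, against 2.22% and 0.456% of all genes tested (2.67% in either direction). In H460, 6 of 9 rose and 2 of 9 fell, against 24.6% and 27.3%. With library size in place of TMM scaling, 4 members rose and 3 fell in H460, and 2075 of all genes rose and 5758 fell in place of 3467 and 3837. At an unadjusted p under 0.05 edgeR also gave 0 members that fell in RKO and in A549, and DESeq2 called 0 lower there. The H460 background is wide, with 51.9% of the tested genes called in either direction. The tested members had a median log2 fold change of 0.19 (RKO), 0.33 (A549) and 0.71 (H460), beside medians of 0.0073, -0.0099 and -0.04 over all genes tested. The members and the further lists below were chosen with earlier results of these data known. Their comparison with all genes is therefore a description. The 4 values left untested were VLDLR in RKO, G0S2 in A549 and PLIN5 in both lung lines, all for low counts.

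The libraries held 27350424 to 41757584 counted reads. Levels are given as CPM, the reads of a gene relative to all counted reads of its library, scaled by TMM factors over the 12 libraries, in the order replicate 1, replicate 2. With library size as the only scaling, the median gene shifted by -0.35 (log2) in H460, 0.08 in RKO and -0.09 in A549, so changes are relative to the TMM reference. The labelled tissues were thinly marked. Of 5 colon genes only CDX2 exceeded 0.5 CPM in RKO, while CDH17 and LGALS4 did so in A549 (0.669 to 2.50 CPM) and none did in H460. Of 5 lung genes NAPSA exceeded it in A549, and in H460 NAPSA reached 0.730 CPM and NKX2-1 went from at most 0.0709 CPM in normoxia to 3.67 and 3.41 CPM in hypoxia. Of 4 epithelial genes, CDH1 was at most 0.106 CPM in RKO and 0.626 CPM in H460, and EPCAM was at most 0.498 CPM in H460. KRT18 was present in every library but lower in RKO hypoxia (89.7 and 88.7 CPM) than in RKO normoxia (183 and 172 CPM). The conditions overlapped in RKO for KRT8 (8.26 and 8.08 CPM in normoxia, 12.9 and 8.18 CPM in hypoxia). They also did for EPCAM there (4.54 and 4.95 CPM against 4.73 and 6.13 CPM). The part of these markers in the results was not tested. PTPRC of leukocytes stayed at or below 0.104 CPM. Of 4 fat cell genes, ADIPOQ was at 0 throughout and LEP was at most 0.0239 CPM. CIDEC was at 0.378 to 0.762 CPM in A549. PLIN1 exceeded 0.5 CPM in the hypoxia libraries of each line, and in H460 it was 0.355 and 0.293 CPM in normoxia and 2.45 and 3.48 CPM in hypoxia. In A549 the hypoxia libraries differed in overall response: over the 316 genes that rose, the median log2 rise was 1.04 in replicate 1 and 1.65 in replicate 2. Of a 2-gene fibroblast list COL3A1 was at most 0.0582 CPM in A549. The summed level there, nearly all COL1A1, was 47.0 to 83.3 CPM in normoxia and 130 to 430 CPM in hypoxia. In H460 both genes were present, COL1A1 at 10.9 to 18.7 CPM and COL3A1 at 8.23 to 14.6 CPM. RKO held COL1A1 at 0.345 to 2.00 CPM and COL3A1 at no more than 0.0502 CPM. The part of these 2 genes in the results was not tested. The RNA came from whole cultures, so fewer cells with a transcript and less of it per cell cannot be told apart.

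Promoter sequence from RefSeq (GRCh38.p14) was at hand for 7 of the 10 members, and not for HILPDA, DGAT1 and DGAT2. The 250 bases before each RefSeq start were searched on both strands for ACGTG and GCGTG, the core letters of the element that hypoxia-inducible factors bind. Annotations differ in where PLIN2, VLDLR and G0S2 start, so part of a window may lie within the transcript. ACGTG occurred in 18.5% and GCGTG in 32.2% of the 35116 promoters of this length, and 43.2% held at least 1 of them. The stretches below are 30 bases each, written 5′ to 3′ on the gene's strand, with the matches in capitals (CACGT and CACGC are the same letters on the other strand). Not every match is shown. These genes were taken because PLIN2 rose in all lines, VLDLR rose in H460 and was almost silent in RKO, and G0S2 fell in H460.
PLIN2, chr9:19127589-19127618, minus strand: gccgggACGTGcccgagggtgacactcggg
PLIN2, chr9:19127554-19127583, minus strand: gacaggGCGTGctgccgcgggtCACGTGct
VLDLR, chr9:2621620-2621649, plus strand: gtcactCACGCACGCtcacactcgCACGCt
VLDLR, chr9:2621671-2621700, plus strand: cccggcGCGTGcaagaggagcgcgtcgagg
G0S2, chr1:209675225-209675254, plus strand: gtcggaGCGTGctcagcGCGTGgccacctc

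PLIN2 held 3 matches of ACGTG, of which 2 are the overlapping strands of 1 palindrome, and 1 of GCGTG. No other member of the 7 held ACGTG in its window. VLDLR held 5 matches of GCGTG and G0S2 held 4, so the letters occurred in the window of a gene that rose and of one that fell in H460. PLIN3 held 3, PLIN5 held 2, 1 of the 3 starts of LPIN1 held 1, and the PNPLA2 window held 0. A match describes the letters and shows no binding.

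**Figure D1:**
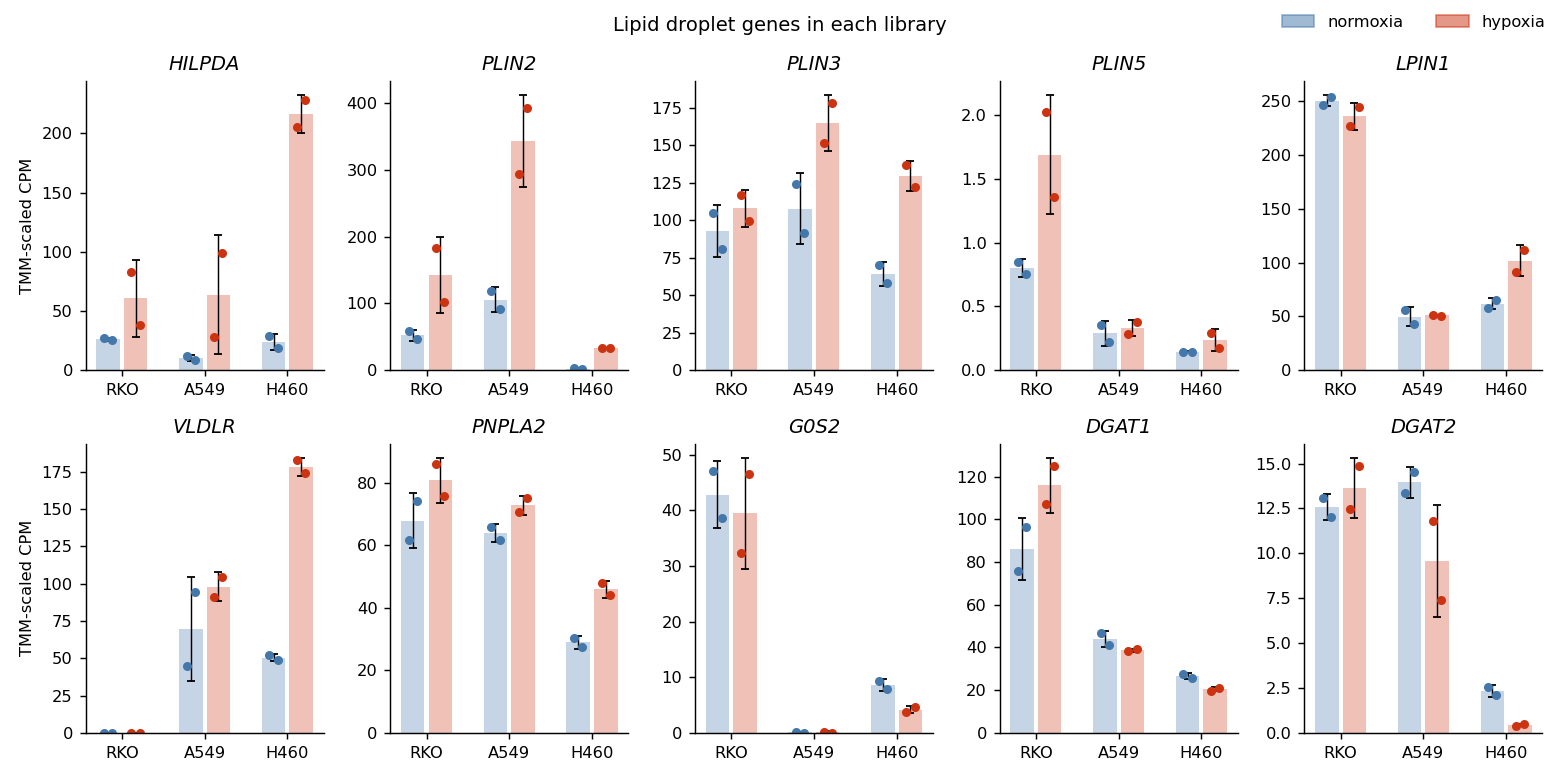
TMM-scaled CPM of the 10 genes in the 12 libraries, grouped by line, with normoxia in blue and hypoxia in red. Points are libraries, bars are means and error bars are the SD of 2 replicates. HILPDA and PLIN2 are higher in hypoxia in each line, VLDLR is near 0 in RKO, and G0S2 is near 0 in A549.

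HILPDA (chr7:128095884-128098472 on GRCh37, plus strand) encodes the hypoxia-inducible droplet protein that blocks ATGL. In H460 its level was 28.8 and 19.0 CPM in normoxia and 205 and 228 CPM in hypoxia. In A549 it was 11.8 and 8.66 CPM in normoxia and 28.1 and 99.2 CPM in hypoxia, and in RKO 27.2 and 25.3 CPM against 83.4 and 37.8 CPM. The conditions did not overlap in any line, but the 2 hypoxia libraries of A549 and of RKO lay far apart. In RKO replicate 1 of hypoxia was the higher one, as it was for PLIN2 and PLIN5. The log2 fold change was 3.17 ± 0.16 (SE) in H460 (edgeR adjusted p = 1.26e-08), 2.61 ± 0.49 in A549 (adjusted p = 0.0410) and 1.14 ± 0.29 in RKO (adjusted p = 0.0103). Without replicate 1 of RKO hypoxia the RKO value was 0.52, under the fold required, and without replicate 2 of A549 hypoxia the A549 value was 1.45, which was still called. With limma on log2 RPKM the A549 rise had an adjusted p of 0.130 or 0.179, depending on the pseudocount.

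The order of HILPDA levels was led by H460 hypoxia at 217 ± 16.1 CPM (SD, n = 2). A549 hypoxia (63.7 ± 50.3 CPM) and RKO hypoxia (60.6 ± 32.2 CPM) followed and did not differ from each other beyond their spread. RKO and H460 normoxia, at 26.3 ± 1.31 and 23.9 ± 6.95 CPM, did not differ either, and A549 normoxia was lowest at 10.2 ± 2.23 CPM. The profiles most like HILPDA over the 12 libraries, by Pearson's r on log2 CPM among 10395 genes, were those of LIX1L (0.95), WSB2 (0.94) and SFXN3 (0.94).

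PLIN2 (chr9:19115759-19127604, minus strand), also called adipophilin, is the coat protein found on droplets of most cell types. In H460 it went from 2.62 and 1.67 CPM to 33.4 and 33.7 CPM, the widest fold among the members. In A549 it went from 119 and 92.2 CPM to 294 and 392 CPM, and in RKO from 58.1 and 46.2 CPM to 183 and 103 CPM. No hypoxia library overlapped the normoxia libraries of its line. The log2 fold changes were 3.97 ± 0.18 in H460 (adjusted p = 5.11e-09), 1.68 ± 0.21 in A549 (adjusted p = 0.00751) and 1.39 ± 0.24 in RKO (adjusted p = 0.00150), all by edgeR. The H460 rise started from a low level: hypoxic H460 cells, at 33.6 ± 0.190 CPM, still held less PLIN2 than normoxic RKO cells at 52.2 ± 8.37 CPM (joint edgeR fit, adjusted p = 0.0312).

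The PLIN2 order ran from A549 hypoxia (343 ± 69.0 CPM) through RKO hypoxia (143 ± 56.6 CPM) and A549 normoxia (106 ± 18.9 CPM), where the last pair did not differ beyond their spread, to RKO normoxia, H460 hypoxia and H460 normoxia, each below the one before. Profiles closest to it over the 12 libraries were PICALM (r = 0.99), KDM2A (0.98) and TPBG (0.97), again as a description, since libraries of 1 line share its identity.

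**Figure D2:**
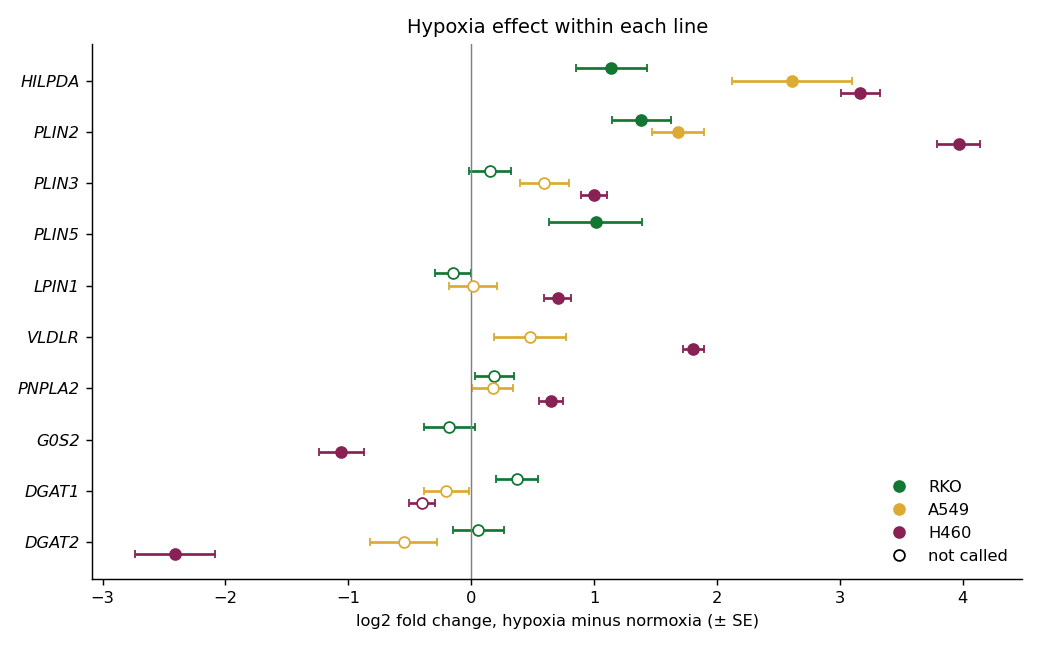
Log2 fold change, hypoxia minus normoxia, of each member in RKO (green), A549 (yellow) and H460 (purple), with SE as bars. Filled points were called and open points were not. Both HILPDA and PLIN2 sit to the right of 0 in each line, and DGAT2 reaches -2.41 in H460.

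PLIN3 (chr19:4838346-4867780, minus strand), a coat protein that moves between cytosol and nascent droplets, rose in H460 from 70.1 and 58.3 CPM to 137 and 122 CPM. Its log2 fold change there was 1.00 ± 0.10 (edgeR adjusted p = 4.21e-06). In A549 the levels were 124 and 91.2 CPM in normoxia and 152 and 178 CPM in hypoxia, without overlap, and the log2 difference of 0.60 ± 0.20 was not called (adjusted p = 0.203). In RKO the conditions overlapped and the log2 difference was 0.15 ± 0.17 (adjusted p = 0.506). Without replicate 1 of A549 hypoxia PLIN3 passed in A549, at 0.70 with an adjusted p of 0.0605, as it did in the joint fit of the 12 libraries.

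PLIN5 (chr19:4522544-4535208, minus strand), a coat protein known from muscle, heart and liver that ties droplets to mitochondria, was scarce everywhere. In RKO it had 32 and 30 reads in normoxia and 82 and 51 reads in hypoxia, a log2 change of 1.01 ± 0.38 (edgeR adjusted p = 0.0561). That call was lost with DESeq2 (adjusted p = 0.148) and without either normoxia library or replicate 1 of hypoxia. A549 had 9 to 15 reads and H460 had 4 to 7 reads per library, too few to test.

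Between genes, levels can be compared only per length, and RPKM serves for this within a library. PLIN2 made up 37.9% and 38.6% of the summed RPKM of the 5 perilipins in RKO normoxia and 63.0% and 52.9% in hypoxia. In A549 the share went from 50.7% and 51.6% to 68.1% and 70.6%. In H460 it went from 3.99% and 3.07% to 21.1% and 23.1%, so PLIN3 stayed the main perilipin mRNA of H460, with 77.6% and 75.1% in hypoxia. PLIN3 supplied 61.5% and 60.6% in RKO normoxia and was below PLIN2 in both hypoxia libraries of that line. The 2 conditions did not overlap in any line. With 2 libraries against 2, an exact permutation test of such a share cannot go below p = 0.333 (two-sided), so it is given as values.

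**Figure D3:**
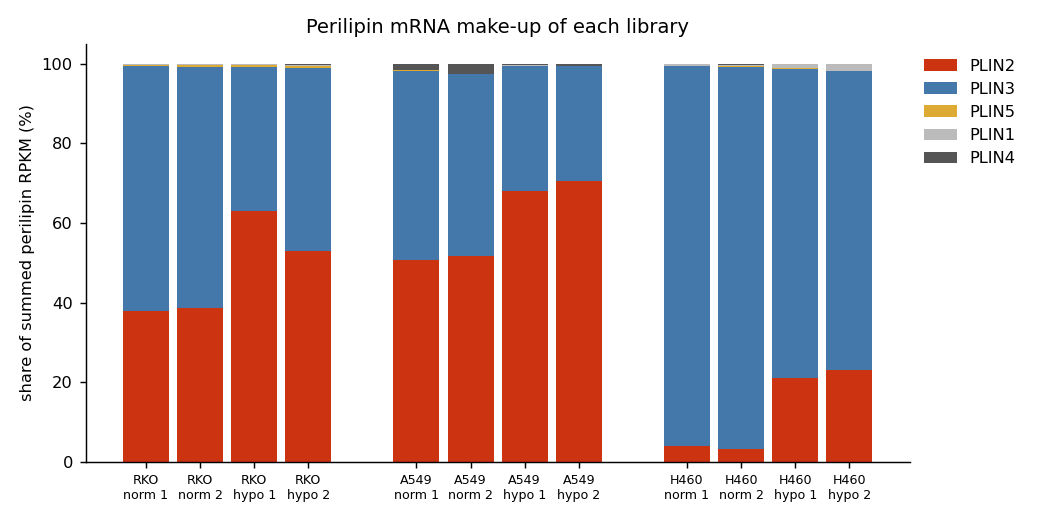
Share (%) of each perilipin in the summed perilipin RPKM, 1 bar per library, with norm and hypo for normoxia and hypoxia. PLIN2 (red) takes a larger part in hypoxia in each line, up to 70.6% in A549, and PLIN3 (blue) keeps over 75% in each H460 library.

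VLDLR (chr9:2621793-2654485, plus strand), the very low density lipoprotein receptor, was abundant in the lung lines and almost silent in RKO. In H460 it rose from 51.9 and 48.8 CPM to 183 and 174 CPM, a log2 change of 1.81 ± 0.09 (edgeR adjusted p = 9.51e-09). In A549 the values were 45.2 and 94.2 CPM in normoxia and 91.1 and 105 CPM in hypoxia, so the conditions overlapped and the log2 difference of 0.48 ± 0.29 was not called (adjusted p = 0.455). Replicate 2 of A549 normoxia weighed most on that result: without it the difference was 1.10 with an adjusted p of 0.0403. In RKO the gene had 9 and 8 reads in normoxia and 5 and 3 in hypoxia, below the filter. Normoxic VLDLR was thus 0.220 ± 0.0271 CPM in RKO, 69.7 ± 34.7 CPM in A549 and 50.3 ± 2.24 CPM in H460, and both lung lines differed from RKO (joint edgeR fit, log2 differences 8.29 and 7.82, adjusted p = 1.17e-10 and 2.20e-10).

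LPIN1 (chr2:11817705-11967533, plus strand) encodes lipin 1, the phosphatase that makes the diacylglycerol from which triglyceride is built. It rose in H460 from 58.1 and 65.4 CPM to 91.5 and 112 CPM (log2 0.71 ± 0.11, edgeR adjusted p = 0.000120). Scaled by library size alone this change was 0.36, under the fold required, and without replicate 2 of H460 hypoxia it was 0.57. RKO held the most LPIN1, at 246 and 254 CPM in normoxia and 227 and 245 CPM in hypoxia, with a log2 difference of -0.15 ± 0.15 (adjusted p = 0.468). In A549 the conditions overlapped at 43.3 to 56.2 CPM and the log2 difference was 0.02 ± 0.20.

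DGAT2 (chr11:75479778-75512581, plus strand), one of the 2 enzymes that add the last fatty acid to triglyceride, fell in H460 from 2.55 and 2.11 CPM to 0.380 and 0.487 CPM. These levels rest on 72 and 72 reads in normoxia and 9 and 14 in hypoxia. The log2 change was -2.41 ± 0.33 (edgeR adjusted p = 3.56e-05). DGAT2 passed the filter of 0.5 CPM in H460 through its normoxia libraries, so without either of them it was not tested, and with no filter it was still called (-2.41). In RKO its conditions overlapped, at 12.6 ± 0.742 CPM in normoxia and 13.7 ± 1.68 CPM in hypoxia (SD, n = 2). In A549 it was 13.3 and 14.5 CPM against 11.8 and 7.39 CPM, a difference of -0.55 ± 0.28 that was not called (adjusted p = 0.357) but passed without replicate 1 of A549 hypoxia (-0.94, adjusted p = 0.0840).

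DGAT1 (chr8:145538246-145550582, minus strand), the other enzyme of that step, was not called in any line. In RKO it was at 75.7 and 96.3 CPM in normoxia and 107 and 125 CPM in hypoxia (log2 0.37 ± 0.17, edgeR adjusted p = 0.106). In H460 it was at 27.7 and 25.7 CPM against 19.8 and 21.1 CPM, and the difference of -0.40 ± 0.11 passed the adjusted p (0.00561) but not the fold. With library size alone that H460 value was -0.75 and was called. Per length, DGAT1 exceeded DGAT2 7.16-fold and 8.03-fold in H460 normoxia and 34.4-fold and 28.5-fold in H460 hypoxia, while in RKO the ratio stayed between 3.81 and 5.66 and in A549 between 1.87 and 3.49.

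PNPLA2 (chr11:818901-825571, plus strand), which encodes ATGL, the lipase that takes the first fatty acid off triglyceride, rose in H460 from 30.4 and 27.4 CPM to 47.7 and 44.0 CPM (log2 0.65 ± 0.10, edgeR adjusted p = 9.28e-05). Under library size alone this was 0.30, and without replicate 2 of H460 normoxia it was 0.54, both under the fold required. The log2 differences were 0.19 ± 0.16 in RKO and 0.17 ± 0.17 in A549, and neither was called.

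G0S2 (chr1:209848670-209849735, plus strand), the other ATGL inhibitor, moved opposite to HILPDA in H460. It fell from 9.36 and 7.92 CPM to 3.71 and 4.63 CPM (log2 -1.06 ± 0.18, edgeR adjusted p = 0.000235). In RKO it was at 47.1 and 38.6 CPM in normoxia and 32.4 and 46.6 CPM in hypoxia, overlapping, with a difference of -0.18 ± 0.20 (adjusted p = 0.529). In A549 it had 2 to 10 reads per library, which was too few to test.

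Set against the lipase mRNA, the 2 inhibitors showed different profiles. In RKO the ratio of HILPDA to PNPLA2 (RPKM over RPKM) was 0.759 and 0.588 in normoxia and 1.67 and 0.860 in hypoxia. In A549 it was 0.308 and 0.241 against 0.685 and 2.28, and in H460 1.63 and 1.19 against 7.39 and 8.90. G0S2 per PNPLA2 in H460 was 0.775 and 0.728 in normoxia and 0.196 and 0.265 in hypoxia, in RKO 1.93 and 1.31 against 0.952 and 1.55, and in A549 at most 0.00855. In H460 HILPDA was the more abundant inhibitor mRNA per length in both conditions, whereas in normoxic RKO it was G0S2 (47.2 ± 5.57 RPKM against 19.8 ± 0.533 RPKM for HILPDA).

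**Figure D4:**
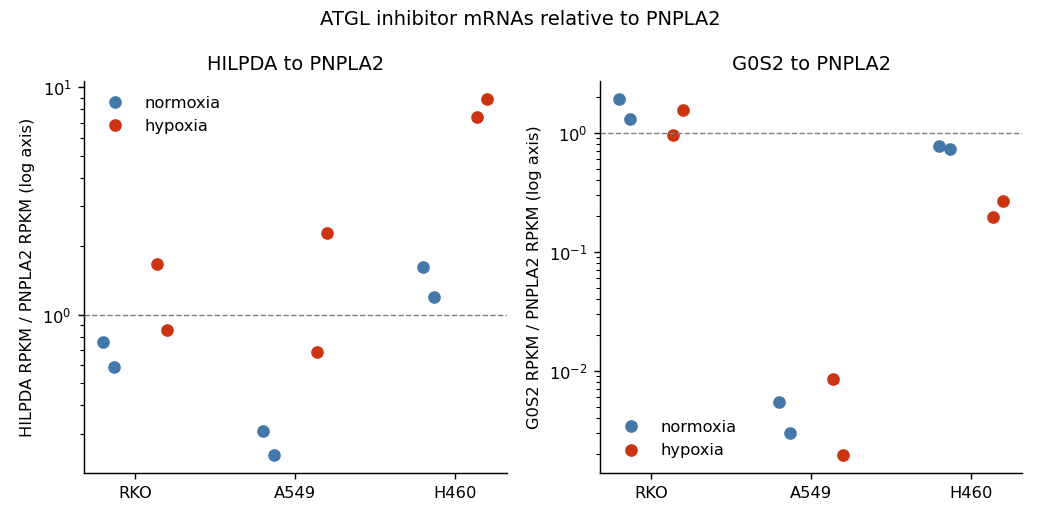
Ratio of HILPDA (left) and G0S2 (right) RPKM to PNPLA2 RPKM in each library, on log axes, with normoxia in blue, hypoxia in red and a dashed line at 1. HILPDA ratios are higher in hypoxia in each line, up to 8.90 in H460, while G0S2 ratios are 0.196 and 0.265 in H460 hypoxia.

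Whether the response differed between lines was tested as an interaction in a joint edgeR fit of the 12 libraries (adjusted p under 0.1). Between H460 and RKO 8 of 10 members differed, against 37.6% of all genes. Between H460 and A549 5 of 10 differed, against 36% of all genes, and between A549 and RKO 1 of 10, against 14.6%. VLDLR is among the 8 although it had 3 to 9 reads per RKO library. The 10 also include G0S2 with 2 to 10 reads in A549, and PLIN5 with 9 to 15 in A549 and 4 to 7 in H460. PLIN2 rose more in H460 than in RKO by 2.53 ± 0.39 on the log2 scale (adjusted p = 0.000379) and than in A549 by 2.28 ± 0.39 (adjusted p = 0.000948). DGAT2 differed by -2.52 ± 0.42 and -1.86 ± 0.42 in the same pairs (adjusted p = 0.000636 and 0.00527). HILPDA rose more in H460 than in RKO by 1.97 ± 0.63 (adjusted p = 0.0285), whereas its H460 to A549 difference of 0.55 ± 0.63 (adjusted p = 0.551) was within the error. The H460 to RKO call of HILPDA was lost without replicate 2 of RKO hypoxia (1.49) or of H460 normoxia (1.71). These comparisons share the libraries of each line.

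In normoxia, 7 of 10 members differed between A549 and RKO, 8 between H460 and RKO and 7 between H460 and A549, by the adjusted p and the fold. Of all genes 60.2%, 61.9% and 52.1% did, so these counts lie near the background. PLIN2 was 24.5-fold lower in H460 than in RKO (adjusted p = 6.99e-09), G0S2 4.96-fold lower (adjusted p = 1.60e-06) and DGAT2 5.40-fold lower (adjusted p = 9.53e-07). G0S2 was at 42.8 ± 6.03 CPM in RKO, 8.64 ± 1.02 CPM in H460 and 0.108 ± 0.0490 CPM in A549. LPIN1 was 5.03-fold lower in A549 and 4.05-fold lower in H460 than in RKO, and PNPLA2 did not differ between A549 and RKO (log2 -0.09 ± 0.14, adjusted p = 0.593).

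Among 63 further genes of droplet coats, fat synthesis, lipolysis, lipid uptake and the PPAR receptors, 14 of the 44 tested rose and 7 fell in RKO, 2 of 45 rose and 0 fell in A549, and 13 of 45 rose and 8 fell in H460. As shares these were 31.8% and 15.9% in RKO, 4.44% in A549 and 28.9% and 17.8% in H460, to be read against the backgrounds above. In A549 edgeR gave 6 lower at an unadjusted p under 0.05, and DESeq2 called 3 lower. The tested pathway genes had median log2 fold changes of 0.13 (RKO), 0.0058 (A549) and -0.02 (H460). With library size alone 7 rose and 15 fell in H460. LRP1, a large endocytic receptor for lipoproteins, rose in all 3 lines. LRP1 went from 35.6 and 26.2 CPM to 876 and 748 CPM in H460 (log2 4.70 ± 0.15, edgeR adjusted p = 9.93e-10). It went from 60.3 and 74.2 CPM to 469 and 338 CPM in RKO (2.52 ± 0.20, adjusted p = 4.40e-05) and from 3466 and 2806 reads to 10508 and 18884 reads in A549 (2.38 ± 0.33, adjusted p = 0.0105). A549 replicate 2 of hypoxia was the higher library for LRP1, as for HILPDA and PLIN2.

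Among uptake genes, 4 of 11 rose and 5 fell in RKO (36.4% and 45.5%), where 18.8% and 15.1% of all genes tested did. In H460 4 of 13 rose and 5 fell (30.8% and 38.5%), against 24.6% and 27.3%. In A549 2 of 10 rose and 0 fell, against 2.22% and 0.456%. Differences from these shares were not tested. FABP5, a fatty acid carrier of the cytosol, fell in RKO from 235 and 215 CPM to 65.8 and 77.0 CPM (log2 -1.71 ± 0.16) and in H460 from 71.9 and 70.2 CPM to 31.4 and 33.4 CPM (-1.15 ± 0.09). The fatty acid transport proteins SLC27A4 and SLC27A2 had log2 changes of -2.84 and -2.46 in H460, and SLC27A4 one of -0.60 in RKO, all called. The RKO call of SLC27A4 was lost without replicate 2 of normoxia (-0.45) or replicate 1 of hypoxia (-0.34), with library size alone, in the joint fit and with limma. SCARB1, the HDL receptor, rose in A549 (0.93 ± 0.21, adjusted p = 0.0767) and fell in RKO (-0.72), and its H460 difference of 0.39 was under the fold required. The A549 call of SCARB1 was lost without replicate 2 of normoxia (0.82) or of hypoxia (0.68), with library size alone and with limma, and the RKO call without replicate 2 of normoxia (-0.56) or replicate 1 of hypoxia (-0.50).

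Of the fat synthesis genes, 5 of 15 rose and 1 fell in RKO (33.3% and 6.67%), where 18.8% and 15.1% of all genes tested did. In H460 4 of 14 rose and 2 fell (28.6% and 14.3%), against 24.6% and 27.3%, so the rises lay near the background. None of 15 was called in A549. ACSL5, which activates fatty acids and is named here because it tops the RKO plot, had 1 and 1 reads in RKO normoxia and 26 and 25 in hypoxia. GPAM, the mitochondrial enzyme that attaches the first fatty acid to glycerol phosphate, fell in RKO (log2 -1.42 ± 0.17) and in H460 (-1.28 ± 0.10). LPIN2, a lipin like LPIN1, rose in H460 from 563 and 662 reads to 2550 and 2654 reads (2.33 ± 0.10, edgeR adjusted p = 5.11e-09) and in RKO by 0.84 ± 0.19. LPIN3, named after its values were seen because it completes the family, rose in RKO (1.54 ± 0.19) and H460 (1.86 ± 0.09). In RKO LPIN1 was not called, and whether it differed from the other lipins was not tested. Of 7 lipolysis genes 2 rose and 1 fell in RKO (28.6% and 14.3%), and none was called in A549. In H460 2 rose (28.6%, against 24.6% of all genes) and 0 fell. PNPLA3, a lipase-like relative of ATGL, rose in RKO from 4.92 and 4.02 CPM to 15.1 and 15.7 CPM (1.72 ± 0.23) and had differences of 0.25 in A549 and -0.10 in H460. Of the other coat and droplet proteins 2 of 9 rose and 0 fell in RKO (22.2% rose). In H460 2 of 8 rose and 1 fell (25% and 12.5%), and 0 of 10 were called in A549. These shares of rises lay near the 18.8% (RKO) and 24.6% (H460) of all genes tested. PLIN1, the fat cell perilipin, rose in RKO and H460. It had 9 and 10 reads in RKO normoxia against 27 and 37 in hypoxia, and 10 and 10 against 58 and 100 in H460. In A549 its conditions did not overlap, and the log2 difference of 1.39 ± 0.49 was not called (edgeR adjusted p = 0.219). PLIN4, the other coat gene called in RKO, had 9 and 18 reads there in normoxia and 53 and 40 in hypoxia. Like ACSL5 and PLIN4 in RKO, PLIN1 passed the filter through its hypoxia libraries. These calls are part of the counts given for the further genes and are no independent support. PPARA, a fatty acid receptor that controls genes of fat burning, rose in RKO (0.64 ± 0.18) and H460 (1.90 ± 0.13). Its A549 difference of 0.91 ± 0.30, without overlap, was not called (edgeR adjusted p = 0.195). PLIN1, PLIN4 and PPARA were named after their values were seen.

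**Figure D5:**
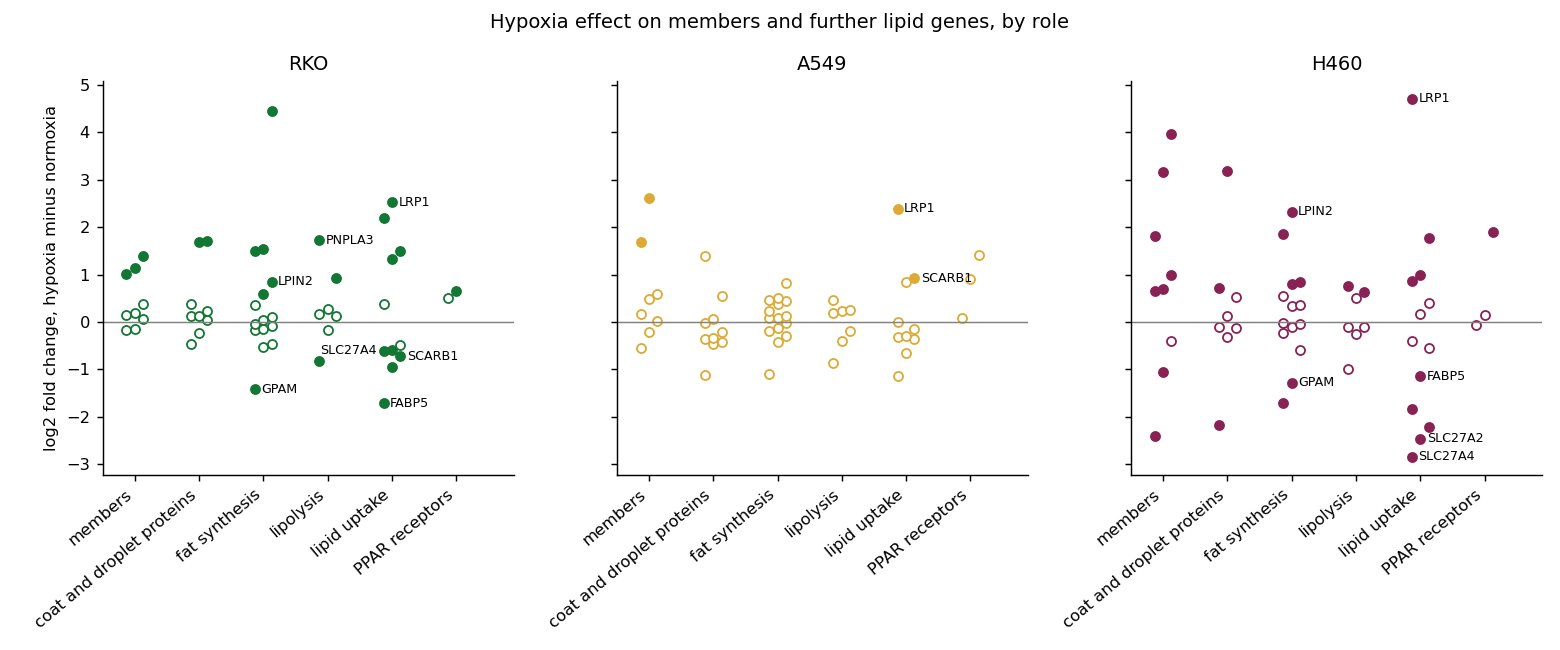
Log2 fold change, hypoxia minus normoxia, of the tested members and of the further genes by role in RKO, A549 and H460. Filled points were called, open points were not, and the genes picked by rule carry names where called. LRP1 is the top uptake gene in each line, at 4.70 in H460, and lipid uptake holds called genes on both sides of 0 in RKO and H460.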

How the data were processed

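Per the labels and the study's methods, strand-specific poly(A)+ reads were aligned with TopHat2 2.0.13 to GRCh37, and the authors counted exon reads per gene with HTSeq 0.6.1, using strand. The authors deposited these counts and RPKM values, each the count divided by gene length and library total. Coordinates were converted to 1-based positions.

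Within a line, the 4 libraries were fitted by edgeR 4.0.16 (R 4.3.3) with TMM factors and the quasi-likelihood F test, over genes above 0.5 CPM in at least 2 of them. Interactions, normoxic differences and the order of levels came from a joint fit, in which neighbours in the order differed at an adjusted p under 0.1. SE is the log2 fold change over the square root of F. RPKM served for comparisons between genes and for limma 3.58.1 with pseudocounts of 0.1 and 1. DESeq2 1.42.0, other scalings, filters, thresholds, a replicate block and leaving out each library were the alternatives.

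Members and lists were chosen with earlier results of these data known. Pathway genes are named where called alike in all 3 lines or among the 2 highest or lowest called genes of a line. The latter needed a mean of at least 100 counts in that line. On simulated data for each line's genes, 79 (RKO), 58 (A549) and 92 (H460) of 100 genes changed 2-fold were recovered. For a simulated difference of the hypoxia effect between H460 and RKO, 31 of 100 genes were recovered at 2-fold and 81 of 100 at 4-fold. A response not called different between lines is therefore not shown to be alike.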

Additional observations from a re-analysis of the deposited data

Results flagged for a closer look

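The members below differed in hypoxia response between at least 1 pair of lines in the joint edgeR fit, each by a test of the difference itself. The share of all genes that differed in at least 1 pair was not counted, so no count of members is set against it. A separate joint edgeR test asked for any difference over the 3 lines, and 48.8% of all genes differed (adjusted p under 0.1). In that test PLIN5 (adjusted p = 0.468) and PNPLA2 (0.126) were the members that did not differ. The values below are log2 differences of the hypoxia effect. Between H460 and RKO they were 1.97 for HILPDA (adjusted p = 0.0285), 2.53 for PLIN2 (0.000379), 0.80 for PLIN3 (0.0297), 0.81 for LPIN1 (0.0109) and 2.90 for VLDLR (0.0154), all toward H460. They were -0.93 for G0S2 (adjusted p = 0.0638), -0.82 for DGAT1 (0.0112) and -2.52 for DGAT2 (0.000636). The VLDLR value rests on 3 to 9 reads per RKO library. With library size alone the PLIN3 (0.41) and LPIN1 (0.42) calls were lost. Leaving out 1 library lost the HILPDA call in some cases (1.49 without replicate 2 of RKO hypoxia), and the PLIN3 and G0S2 calls in several.

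Between H460 and A549 the differences were 2.28 for PLIN2 (adjusted p = 0.000948), 0.69 for LPIN1 (0.0277), 1.33 for VLDLR (0.00992), 0.48 for PNPLA2 (0.0927) and -1.86 for DGAT2 (0.00527). With library size alone the LPIN1 (0.43) and PNPLA2 (0.21) calls were lost. That of PNPLA2 was also lost on leaving out any library of either line. That of LPIN1 was also lost without replicate 1 of H460 normoxia (0.60) or replicate 2 of H460 hypoxia (0.56). Between A549 and RKO the difference was -0.62 for DGAT1 (adjusted p = 0.0865). That DGAT1 call was lost with RLE factors (-0.58) and on leaving out most libraries 1 at a time. H460 grew in another medium than the other lines, so line and medium cannot be told apart in the differences that involve H460.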

How the results depend on the processing

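Of 414 recomputed log2 fold changes within a line, 375 kept their direction and side of the threshold; 20 were no longer called, 10 became called and 9 turned sign. For differences of the hypoxia effect the numbers were 481, 36, 15 and 7 of 539, and for normoxic differences 530, 3, 3 and 4 of 540. In 1 case DESeq2 gave no adjusted p. Over all genes tested, 106 to 1189 rose in A549 across the alternatives (316 in the reported fit) and 21 to 752 fell (65), 1359 to 3082 rose (2415) and 621 to 2938 fell (1930) in RKO, and 1603 to 5345 rose (3467) and 2356 to 5758 fell (3837) in H460.

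Counts of members: in RKO 1 to 3 rose on leaving out single libraries (3 with all), lowest without replicate 1 of hypoxia. In A549 1 rose with limma at either pseudocount (2 in the reported fit), and 0 to 1 fell on leaving out libraries (0 with all). In H460 3 rose at a fold over 2 (6 in the reported fit), and 1 to 2 fell on leaving out libraries. Members whose response differed numbered 0 to 2 for A549 against RKO on leaving out libraries (1 with all), 0 with RLE factors and 3 with no filter; 5 to 8 for H460 against RKO, lowest without replicate 2 of RKO hypoxia or of H460 normoxia; and 3 to 6 for H460 against A549, lowest without replicate 1 of H460 normoxia or replicate 2 of H460 hypoxia.

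Counts of pathway genes: in RKO 7 fell, against 3 to 10 on leaving out libraries, 4 with limma at a pseudocount of 1, 11 with no fold minimum and 2 at a fold over 2. In A549 2 rose, against 1 to 7 on leaving out libraries, 1 with library size, limma, a fold over 2 or an adjusted p of 0.05, 5 with DESeq2, 4 with no filter and 7 in the joint fit. In A549 0 fell, against 1 to 3 on leaving out libraries and 3 with DESeq2, with no filter and in the joint fit. In H460 13 rose, against 7 with library size or limma and 6 at a fold over 2, and 8 fell, against 15 with library size, 13 with limma at 0.1 and 13 with no fold minimum.

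A block on the replicate number gave 7 pathway genes that rose and 5 that fell in A549, and 1 member that fell there (DGAT2, -0.59, adjusted p = 0.0599), while PLIN3 rose (0.61, adjusted p = 0.00232). Deviations of equally numbered libraries correlated at 0.357 in RKO, 0.371 in A549 and 0.145 in H460, but with 2 pairs a line the numbers do not establish pairing.

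Log2 values that changed sign on leaving out 1 library ranged as follows. Hypoxia effects were -0.026 to 0.36 for PLIN3, -0.45 to 0.11 for G0S2 and -0.065 to 0.23 for DGAT2 in RKO, -0.16 to 0.22 for LPIN1, -0.11 to 0.54 for PNPLA3 and -0.57 to 0.19 for FABP5 in A549, and -0.22 to 0.036 for PNPLA3 in H460. Response differences were -0.12 to 0.72 for PLIN2, -0.058 to 0.32 for LPIN1, -0.20 to 0.059 for PNPLA2 and -0.75 to 1.23 for G0S2 (A549 against RKO), and -0.096 to 1.72 for HILPDA (H460 against A549), the ends of the last being without replicate 1 and 2 of A549 hypoxia. Normoxic differences were -0.025 to 0.43 for PLIN3 and -0.20 to 0.056 for PNPLA2 (A549 against RKO), -0.46 to 0.15 for HILPDA (H460 against RKO) and -0.91 to 0.15 for VLDLR (H460 against A549). With library size alone LPIN1 turned to -0.072 in A549 and its A549 to RKO difference to -0.0092, and with limma LPIN1 in A549 was -0.061 and -0.055. The cause was not tested. With 2 libraries a group, these data do not resolve every 2-fold change: on simulated data 58 of 100 were recovered in A549 and 92 of 100 in H460. Changes near 1.5-fold were not simulated. The biological coefficient of variation was 18.9% in A549 against 7.91% in H460.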
